A study of Mus musculus with 15 samples.

Results

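The genes described here encode the KEAP1-CUL3 ubiquitin ligase, its substrate NRF2, the autophagy adaptor p62 and the transcription factors that pair or compete with NRF2. They were chosen by symbol, not by level, and number 10 of the 35880 gene symbols in the table (*Keap1*, *Cul3*, *Rbx1*, *Nfe2l2*, *Sqstm1*, *Nfe2l1*, *Bach1*, *Mafg*, *Maff* and *Mafk*). All 10 passed the filter on low values that kept 14652 genes for testing. The study sequenced mRNA from LL2 cells, a mouse Lewis lung carcinoma line that carries a luciferase gene, in 5 lines with 3 replicates each. LL2 WT is the unedited parental line. *KEAP1* KO #1 (clone K2B12), *KEAP1* KO #2 (K3A3) and *KEAP1* KO #3 (K3F10) each received a CRISPR plasmid directed at *Keap1*, and *NRF2* KO (N1D8) received one directed at *Nfe2l2*. Every line grew in the same complete medium with no drug or stressor. The 4 edited lines were each grown from 1 sorted cell, whereas the parental line was not, so a property of a clone and an effect of its edit cannot be told apart within 1 line. *NRF2* KO is a single clone. The edits were not located in the values used here, and an mRNA level does not show whether a transcript still encodes a working protein.

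KEAP1 is a BTB-Kelch protein that holds NRF2 and presents it to the CUL3 scaffold, while RBX1 is the RING subunit that recruits the ubiquitin-conjugating enzyme. In unstressed cells NRF2 is thereby sent to the proteasome. When KEAP1 is modified by electrophiles, lost by mutation or occupied by p62, NRF2 accumulates, pairs with a small MAF protein and binds antioxidant response elements near genes of glutathione synthesis, quinone reduction and NADPH supply. BACH1 occupies the same elements as a repressor with the same small MAF partners, and NRF1, encoded by *Nfe2l1*, is a relative of NRF2 that drives proteasome genes. Loss of KEAP1 and gain of NRF2 are recurrent events in lung cancer.

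The values were CPM, read counts scaled so that all samples sum to almost 1 total, which leaves the read depth of a library unknown. Among markers of other cells, *Adgre1* and *Scgb1a1* were at 0 in all 15 samples, *Ptprc* reached at most 0.192 CPM and *Cd3e* 0.035 CPM. The lung markers *Sftpc* and *Nkx2-1* and the epithelial markers *Epcam* and *Cdh1* stayed below 0.5 CPM, while *Krt18* ran from 234 to 575 CPM and *Krt8* from 65.1 to 186 CPM, so the defining lung epithelial markers were at or near 0 in this lung-derived line (*Sftpc* reached 0.422 CPM at most). The immune list of 4 genes summed to 1.99 to 4.54 CPM in LL2 WT, 4.97 to 9.29 in *KEAP1* KO #1, 8.92 to 22.6 in #2, 14 to 36.5 in #3 and 1.84 to 3.22 in *NRF2* KO. Only *Cd68* of that list averaged above 1 CPM, and *Cd68* was higher in #2 (4.6-fold, limma, adjusted p = 0.00267) and #3 (7.26-fold, adjusted p = 0.000406). The endothelial list of 2 genes summed to 2.42 to 3.66 CPM in LL2 WT, 2.76 to 4.84 in #1, 5.1 to 6.59 in #2, 5.24 to 6 in #3 and 4.06 to 7.46 in *NRF2* KO, and its *Cdh5* was higher on the log2 scale in #2 (2.92, adjusted p = 0.000338) and #3 (3.45, adjusted p = 8.87e-05). The fibroblast list of 3 genes summed to 7.38 to 19.4 CPM in LL2 WT, 3.47 to 9.48 in #1, 5.65 to 8.09 in #2, 2.33 to 4.19 in #3 and 4.32 to 9.37 in *NRF2* KO. Of it, *Col1a1* was lower in #2 (−1.69, adjusted p = 0.0337) and #3 (−1.92, adjusted p = 0.019), and *Pdgfra* in #3 (−1.87, adjusted p = 0.00462). *Cdh5* ran from 0 to 1.54 CPM and *Col1a1* from 0.0114 to 0.829 CPM over all samples. These levels lie close to the 0.1 CPM added before the log, so the size of their changes is uncertain. The general epithelial list summed to 591 to 662 CPM in LL2 WT, 560 to 610 in #2 and 536 to 636 in #3. It lay below LL2 WT without overlap in *KEAP1* KO #1 (299 to 435 CPM) and *NRF2* KO (385 to 546 CPM), where 37.0% and 13.2% of all tested genes did not overlap. By limma its *Krt8* was lower in #1 (−0.44, adjusted p = 0.0318) but higher in #2 (0.76, adjusted p = 0.000971) and #3 (0.43, adjusted p = 0.0274). *Krt18* passed only in #1 (−0.87, adjusted p = 0.00154), and neither keratin passed in *NRF2* KO. The part of these markers in the results below was not tested. Replicate 3 stood apart: of 11676 genes compared, 6015 (51.5%) differed from replicates 1 and 2 in the same direction in all 5 lines. The cause was not tested.

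Against LL2 WT, 7 of the 10 members passed an adjusted p under 0.05 (limma, Benjamini-Hochberg over all 14652 genes) in each *KEAP1* KO clone, and they were the same 7 genes in the 3 clones. *Cul3*, *Sqstm1*, *Bach1*, *Mafg* and *Mafk* were higher, and *Keap1* and *Nfe2l2* were lower. Over all tested genes, 23.2% passed in *KEAP1* KO #1 (15.9% higher, 7.25% lower), 31.9% in #2 (17.3% and 14.6%) and 31.4% in #3 (16.6% and 14.8%), and 13.5% passed in 1 direction in all 3. In *NRF2* KO 1 of the 10 members passed, *Nfe2l2*, which was lower, against 0.621% of all genes (0.130% higher, 0.491% lower). There 2 members had an unadjusted p under 0.05, a share not computed over all genes. Few of these changes were large. Past a 2-fold change (a log2 fold change beyond 1) there were 0 members in *KEAP1* KO #1, 1 in #2 and 2 in #3, where 8.54%, 13.7% and 13.4% of all genes lay, and 0 in *NRF2* KO, where 0.464% lay. All log2 fold changes are on the scale of log2(CPM + 0.1). The 4 comparisons share the same 3 LL2 WT samples. In bulk RNA, fewer cells that express a gene and less RNA per cell cannot be told apart.

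**Figure D1:**
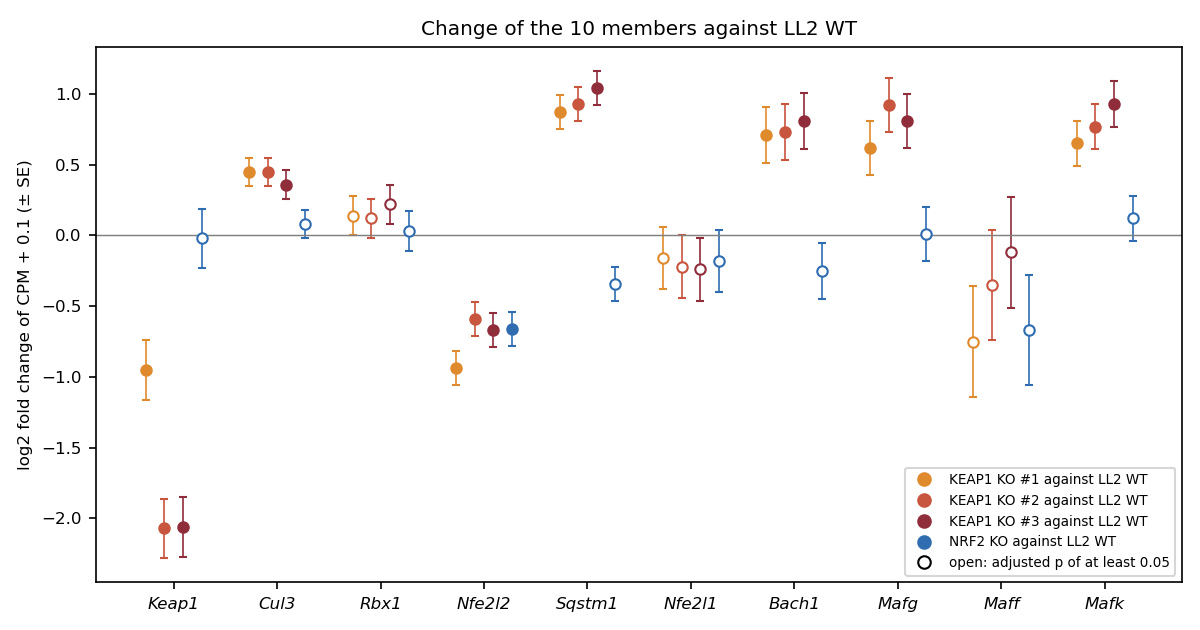
Log2 fold change (CPM + 0.1) of each member against LL2 WT in the 4 edited lines, with the SE from the limma fit (n = 3 samples a line); filled points have an adjusted p under 0.05 and open points do not. *Keap1* lies near −1 in *KEAP1* KO #1 and near −2 in #2 and #3, *Nfe2l2* lies below 0 in all 4 edited lines, and *Cul3*, *Sqstm1*, *Bach1*, *Mafg* and *Mafk* lie above 0 in the 3 *KEAP1* KO clones.

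Without overlap between the samples of the 2 lines, 5 members lay above LL2 WT and 2 below it in each *KEAP1* KO clone, and 3 overlapped (*Rbx1*, *Nfe2l1* and *Maff*). Over all tested genes the samples did not overlap for 37.0%, 42.0% and 40.0% in *KEAP1* KO #1, #2 and #3. In *NRF2* KO 8 members overlapped LL2 WT, *Nfe2l2* lay below it and *Cul3* above it, and over all genes 13.2% did not overlap. The 9 *KEAP1* KO samples lay on 1 side of all LL2 WT samples for the same 7 members, and for 20.6% of all genes. The median log2 fold change of the 10 members was 0.29 in each *KEAP1* KO clone and −0.10 in *NRF2* KO, beside medians of all tested genes of 0.11, 0.03, 0.02 and 0.04.

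**Figure D2:**
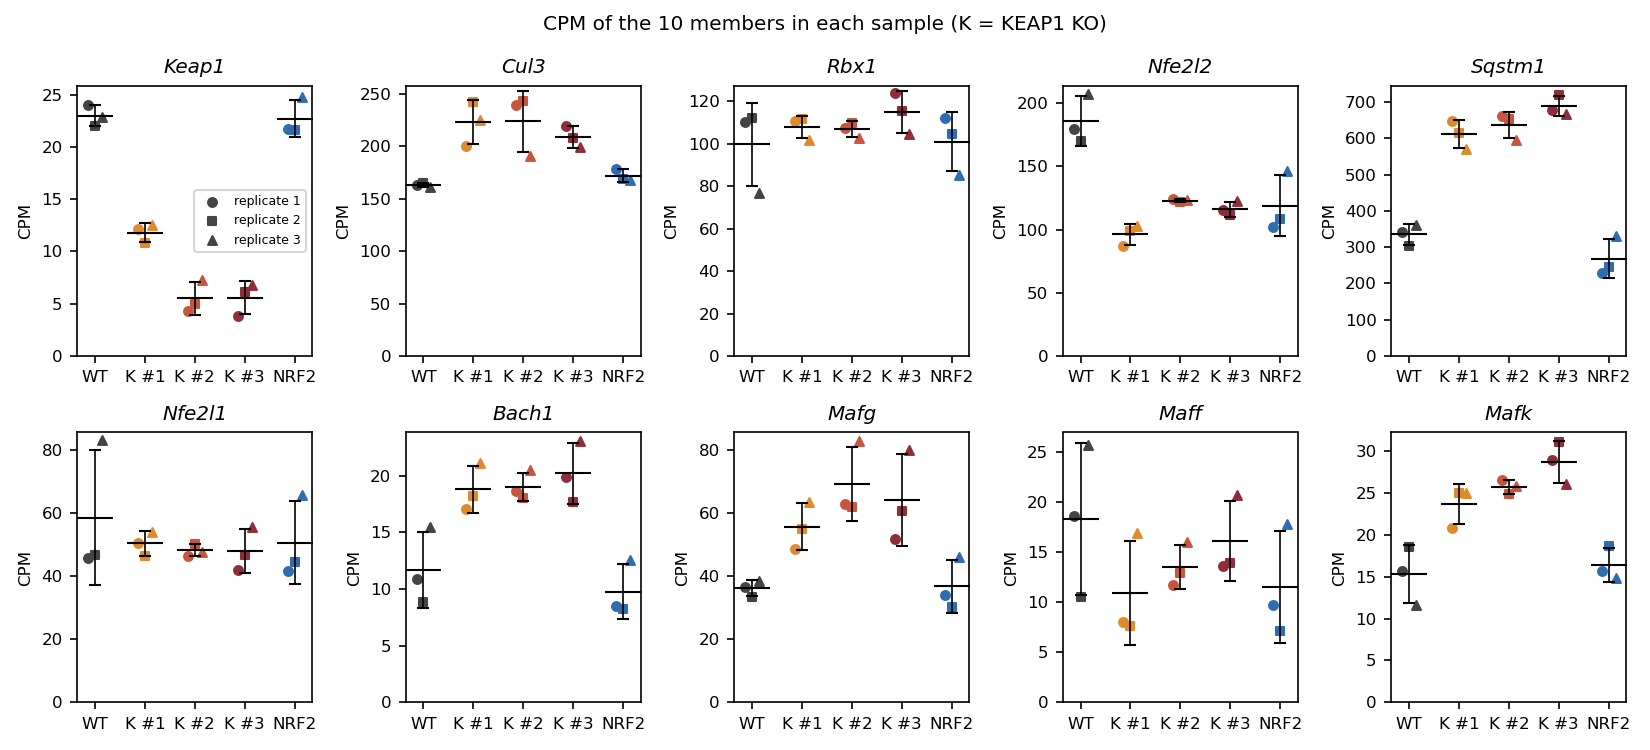
CPM of the 10 members in each of the 15 samples, with the mean (horizontal bar) and SD (n = 3) of each line; circles, squares and triangles are replicates 1, 2 and 3, and each panel starts at 0. *Sqstm1* is the most abundant member in every line, and its 9 *KEAP1* KO samples lie between 570 and 719 CPM, above the 6 samples of LL2 WT and *NRF2* KO.

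*Keap1* (ENSMUSG00000003308, chromosome 9 from 21229730 to 21239361, minus strand, GRCm38) is the gene edited in 3 of the lines. It stood at 24, 22 and 22.9 CPM in LL2 WT (23 ± 1.03 CPM, SD, n = 3). *KEAP1* KO #1 gave 12.17, 10.8 and 12.5 CPM, *KEAP1* KO #2 4.28, 5.01 and 7.29, and *KEAP1* KO #3 3.78, 6.13 and 6.83. The *NRF2* KO samples were at 21.8, 21.6 and 24.8 CPM. The 9 *KEAP1* KO samples lay below every other sample, and clone #1 lay above the other two clones without overlap. On the log2 scale *Keap1* differed from LL2 WT by −0.95 ± 0.21 (SE, adjusted p = 0.00668) in *KEAP1* KO #1, −2.07 ± 0.21 (adjusted p = 1.41e-05) in #2 and −2.06 ± 0.21 (adjusted p = 1.28e-05) in #3. *Keap1* mRNA thus remained detectable in every clone, at 1.94-fold, 4.2-fold and 4.18-fold below LL2 WT. In #1 the change missed the threshold without replicate 1 (adjusted p = 0.0536) or replicate 2 (adjusted p = 0.119) of every line. In *NRF2* KO the difference was −0.02, with a 95% interval from −0.44 to 0.40.

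The *KEAP1* KO clones differed among themselves in 1 of the 10 members, *Keap1*, where 16.0% of all tested genes differed in at least 1 pair of clones. The count was 2 after rescaling by the median of ratios, in fits on the compared lines alone and without replicate 3 of every line, and 0 without replicate 1 or replicate 2 of every line. With a term for replicate number in the fit (a replicate block) it was 4. *Keap1* was lower in *KEAP1* KO #2 than in #1 by a log2 fold change of −1.12 (limma, adjusted p = 0.00497) and lower in #3 than in #1 by −1.11 (adjusted p = 0.00498). Between #3 and #2 the difference was 0.01 (adjusted p = 1), and 0 members passed there by limma, with 0 at an unadjusted p under 0.05, where 0.764% of all genes passed. Of the coding *Keap1* transcripts, 9.4% of the 31-base stretches also occur in Gm16754, an antisense gene that overlaps it. Reads from the pair cannot be told apart there. Gm16754 has no entry among the deposited values, so its level is unknown.

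*Cul3* (ENSMUSG00000004364, chromosome 1 from 80264923 to 80340480, minus strand) encodes the scaffold that KEAP1 shares with many other BTB adaptors. LL2 WT samples were at 163, 165 and 161 CPM and *NRF2* KO samples at 179, 169 and 168 CPM. *KEAP1* KO #1 was at 200, 242 and 225 CPM, #2 at 239, 243 and 191 CPM, and #3 at 220, 208 and 199 CPM. All *KEAP1* KO samples lay above all others, with the lowest in replicate 3 of clone #2. *Cul3* rose 1.36-fold in *KEAP1* KO #1 (adjusted p = 0.00608), 1.37-fold in #2 (adjusted p = 0.00372) and 1.28-fold in #3 (adjusted p = 0.0147), with an SE of 0.10 on the log2 scale. In *NRF2* KO the log2 difference was 0.08, with an interval from −0.12 to 0.27. After rescaling by the median of ratios the change missed the threshold in #1 (0.34, adjusted p = 0.0776) and #3 (0.35, adjusted p = 0.0543), and without *KEAP1* KO #3 replicate 1 it missed in #3 (0.32, adjusted p = 0.061), as it did with quantile normalization (0.20, adjusted p = 0.138). Without replicate 1 or replicate 2 of every line it missed the threshold in all 3 clones, with adjusted p from 0.0724 (#1) to 0.19 (#3).

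*Rbx1* (ENSMUSG00000022400, chromosome 15 from 81466296 to 81476369, plus strand) encodes the RING subunit shared by cullin ligases. Its values were 110, 112 and 76.9 CPM in LL2 WT, 111, 111 and 102 in *KEAP1* KO #1, 108, 110 and 103 in #2, 124, 116 and 105 in #3, and 112, 105 and 85.4 in *NRF2* KO. The lines overlapped, and replicate 3 was the lowest sample in 5 of 5 lines. No comparison with LL2 WT passed, and the 95% intervals of the 3 clones lay between −0.15 and 0.49 on the log2 scale. *Rbx1* shares 11.5% of the 31-base stretches of its coding transcripts with other genes, chiefly the pseudogene *Rbx1-ps*. That pseudogene averaged 27.1 to 54.3 CPM by line, so the level of *Rbx1* is uncertain.

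*Nfe2l2* (ENSMUSG00000015839, chromosome 2 from 75675513 to 75704641, minus strand) encodes NRF2 and is the gene edited in *NRF2* KO. LL2 WT samples were at 179, 170 and 208 CPM (186 ± 19.6). *KEAP1* KO #1 was at 87.0, 99.0 and 103 CPM, #2 at 124, 122 and 124, #3 at 115, 111 and 123, and *NRF2* KO at 102, 108 and 146 CPM. All 12 edited samples lay below the 3 LL2 WT samples, and *NRF2* KO overlapped all 3 *KEAP1* KO clones. *Nfe2l2* fell 1.92-fold in *KEAP1* KO #1 (log2 fold change −0.94 ± 0.12, adjusted p = 0.000196), 1.5-fold in #2 (−0.59, adjusted p = 0.0033) and 1.59-fold in #3 (−0.67, adjusted p = 0.00132). In #2 the change missed the threshold without replicate 1 of every line (adjusted p = 0.0702). In *NRF2* KO *Nfe2l2* was 1.58-fold lower (−0.66 ± 0.12, adjusted p = 0.0301).

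The change of *Nfe2l2* in *NRF2* KO held in 9 of 17 alternative fits, with adjusted p between 0.00269 and 0.793. It missed the threshold in a fit on these 2 lines alone (adjusted p = 0.55). With LL2 WT replicate 1 left out the value was −0.68 at an adjusted p of 0.0876, and with LL2 WT replicate 3 left out −0.58 at 0.11. With *NRF2* KO replicate 1 left out it was −0.56 at an adjusted p of 0.141, and with its replicate 2 left out −0.60 at 0.153. Against *NRF2* KO directly, the mean of the 3 *KEAP1* KO clones differed in *Nfe2l2* by −0.08, with a 95% interval from −0.28 to 0.12. In the reported fit the mRNA of the factor was lower than in LL2 WT in every edited line. Each of these lines was grown from 1 sorted cell and compared with the same 3 LL2 WT samples. An effect of the edits, of cloning or of those shared samples cannot be told apart here.

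**Figure D3:**
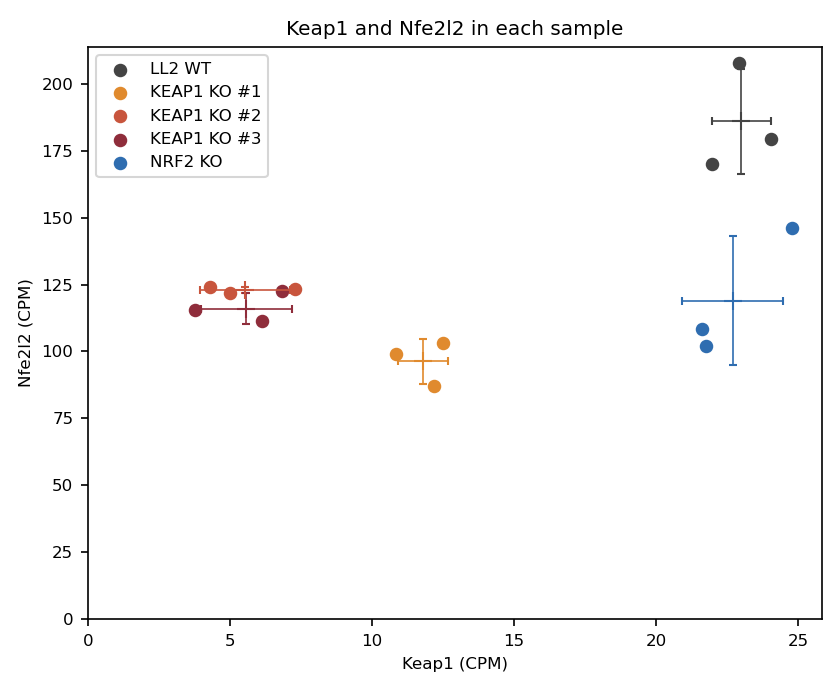
*Keap1* (horizontal, CPM) against *Nfe2l2* (vertical, CPM) in each of the 15 samples, with crosses at the mean and SD of each line (n = 3) and both axes from 0. LL2 WT lies at the upper right, *NRF2* KO below it at the same *Keap1* level, *KEAP1* KO #1 at a mean of 11.8 and 96.4 CPM, and *KEAP1* KO #2 and #3 together at the left near 5.53 and 123 CPM and 5.58 and 116 CPM.

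Per kilobase of the longest coding transcript, *Nfe2l2* exceeded *Keap1* by a ratio of 11.8 ± 1.25 (SD, n = 3) in LL2 WT and 11.9 ± 1.46 in *KEAP1* KO #1. The ratio was 34.2 ± 8.85 in *KEAP1* KO #2, 32.4 ± 10.5 in #3 and 7.58 ± 0.921 in *NRF2* KO. In clone #1 both mRNAs were lower and their ratio overlapped that of LL2 WT, whereas in #2 and #3 all samples lay above it, between 24.8 and 44.5. These ratios are a description of levels per length and were not tested.

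*Sqstm1* (ENSMUSG00000015837, chromosome 11 from 50199366 to 50210827, minus strand) encodes p62, which carries ubiquitinated cargo to autophagosomes and can occupy KEAP1 in place of NRF2. It stood at 341, 303 and 361 CPM in LL2 WT and at 230, 244 and 330 CPM in *NRF2* KO. *KEAP1* KO #1 gave 648, 613 and 570 CPM, #2 660, 654 and 595 CPM, and #3 679, 719 and 667 CPM. The clones did not overlap the other lines, whereas *NRF2* KO overlapped LL2 WT through its replicate 3. *Sqstm1* rose 1.83-fold in *KEAP1* KO #1 (log2 fold change 0.87 ± 0.12, adjusted p = 0.000299), 1.90-fold in #2 (0.93, adjusted p = 0.000101) and 2.06-fold in #3 (1.04, adjusted p = 3.5e-05). These 3 changes held in 17 of 17 alternative fits.

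In *NRF2* KO the log2 difference of *Sqstm1* was −0.34 (adjusted p = 0.313, interval from −0.57 to −0.10), and without *NRF2* KO replicate 3 it was −0.50 (adjusted p = 0.0494). Against *NRF2* KO directly, the mean of the *KEAP1* KO clones was 2.43-fold higher (1.28 ± 0.10, adjusted p = 8.23e-07). The neighbour Mrnip lies on the opposite strand and shares part of the 19.2% of *Sqstm1* stretches that are not unique; it averaged 4.27 to 9.05 CPM by line, far below *Sqstm1*.

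*Nfe2l1* (ENSMUSG00000038615, chromosome 11 from 96817414 to 96829968, minus strand) showed no change past the threshold. LL2 WT was at 45.8, 46.6 and 83.1 CPM, *KEAP1* KO #1 at 50.5, 46.3 and 54.1, #2 at 46.5, 50.2 and 47.7, #3 at 41.8, 46.6 and 55.4, and *NRF2* KO at 41.6, 44.5 and 65.7. The high samples were replicate 3 of LL2 WT and of *NRF2* KO, 0.845 and 0.609 above replicates 1 and 2 on the log2 scale. The 95% intervals against LL2 WT ran from −0.59 to 0.26, −0.65 to 0.20, −0.66 to 0.19 and −0.61 to 0.24 in the 4 edited lines. Without LL2 WT replicate 3 the direction turned in all 4, to values between 0.04 and 0.12.

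*Bach1* (ENSMUSG00000025612, chromosome 16 from 87698945 to 87733346, plus strand), the repressor at antioxidant response elements, stood at 10.9, 8.84 and 15.4 CPM in LL2 WT and at 8.49, 8.19 and 12.5 CPM in *NRF2* KO. It was at 17, 18.2 and 21.1 CPM in *KEAP1* KO #1, 18.7, 18 and 20.5 in #2, and 19.8, 17.7 and 23 in #3. All *KEAP1* KO samples lay above all others, and replicate 3 was the highest sample in each line. *Bach1* rose 1.63-fold in #1 (0.71 ± 0.20, adjusted p = 0.0244), 1.66-fold in #2 (0.73, adjusted p = 0.0151) and 1.75-fold in #3 (0.81, adjusted p = 0.00886). The mean of the clones was 2.00-fold above *NRF2* KO (1.00 ± 0.17, adjusted p = 0.000596).

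The change of *Bach1* held in 10, 13 and 14 of 17 alternative fits in the 3 clones, and in fits on 2 lines alone it missed in all 3 (adjusted p = 0.0943, 0.0582 and 0.057). In *KEAP1* KO #1 it also missed when single samples were left out: with LL2 WT replicate 1 gone the adjusted p was 0.0721, with LL2 WT replicate 2 gone 0.0748 (at 0.52), and with the clone's own replicate 2 or 3 gone 0.063 or 0.081. In #2 it missed when LL2 WT replicate 2 was left out (0.55, adjusted p = 0.0529). Per kilobase, *Nfe2l2* exceeded *Bach1* by a ratio of 38.9 ± 6.86 in LL2 WT and 29.1 ± 1.92 in *NRF2* KO, beside 12.21 ± 0.672, 15.4 ± 0.917 and 13.8 ± 1.14 in the *KEAP1* KO clones. With NRF2 mRNA lower and BACH1 mRNA higher, the ratio of the activator's mRNA to the repressor's was lowest in the 3 clones. These ratios were not tested and describe mRNA, not protein. By Western blot, the paper reported the expected changes of NRF2 protein in both kinds of knockout.

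The small MAF genes encode bZIP proteins without an activation domain of their own, which take their effect from the partner. *Mafg* (ENSMUSG00000051510, chromosome 11 from 120625117 to 120633600, minus strand) had 36.6, 33.4 and 38.4 CPM in the parental samples and 34, 30.2 and 46.2 CPM in those of *NRF2* KO. It was at 48.7, 54.8 and 63.6 CPM in *KEAP1* KO #1, 62.7, 62 and 82.7 in #2, and 51.7, 60.6 and 80 in #3. All *KEAP1* KO samples lay above all others, and replicate 3 was the highest in each line. *Mafg* rose 1.53-fold in #1 (0.62 ± 0.19, adjusted p = 0.0305), 1.90-fold in #2 (0.92, adjusted p = 0.0024) and 1.75-fold in #3 (0.81, adjusted p = 0.00546).

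In *KEAP1* KO #1 the change of *Mafg* held in 8 of 17 alternative fits. It missed there when LL2 WT replicate 1 (adjusted p = 0.0696) or 2 (adjusted p = 0.0692) or the clone's replicate 2 (adjusted p = 0.0811) or 3 (adjusted p = 0.103) was left out, with no filter on low values (adjusted p = 0.0523) or quantile normalization (0.52, adjusted p = 0.0591). Without replicate 1 of every line the change missed the threshold in all 3 clones (adjusted p = 0.15, 0.0534 and 0.0575 in #1, #2 and #3). Without replicate 2 of every line it missed in #1 (adjusted p = 0.209) and #3 (adjusted p = 0.0787). In *NRF2* KO the difference was 0.01, with an interval from −0.36 to 0.37.

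*Mafk* (ENSMUSG00000018143, chromosome 5 from 139791513 to 139802653, plus strand) had 15.7, 18.5 and 11.6 CPM in the parental samples and 15.6, 18.6 and 14.8 CPM in those of *NRF2* KO. It was at 20.8, 25 and 25 CPM in *KEAP1* KO #1, 26.4, 24.8 and 25.7 in #2, and 28.8, 31.1 and 26.1 in #3. All *KEAP1* KO samples lay above all others, LL2 WT and *NRF2* KO overlapped, and LL2 WT replicate 3 was the lowest of the 15 samples. *Mafk* rose 1.57-fold in #1 (0.65 ± 0.16, adjusted p = 0.00985), 1.71-fold in #2 (0.77, adjusted p = 0.00238) and 1.90-fold in #3 (0.93, adjusted p = 0.000635). In #1 the change missed the threshold in a fit on 2 lines alone (adjusted p = 0.0872) and without replicate 1 (adjusted p = 0.117) or replicate 3 (0.42, adjusted p = 0.052) of every line, and in #2 without replicate 1 of every line (adjusted p = 0.0924). In *NRF2* KO the difference was 0.12, with an interval from −0.19 to 0.42.

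*Maff* (ENSMUSG00000042622, chromosome 15 from 79346621 to 79359076, plus strand) did not follow the other small MAF genes. It was at 18.6, 10.5 and 25.7 CPM in LL2 WT, 8.07, 7.67 and 16.9 in *KEAP1* KO #1, 11.7, 12.9 and 16 in #2, 13.6, 14 and 20.7 in #3, and 9.76, 7.09 and 17.8 in *NRF2* KO. Replicate 3 was the highest in 5 of 5 lines, by 0.375 to 1.09 on the log2 scale, and every edited line overlapped LL2 WT. The log2 differences from LL2 WT were −0.75 ± 0.39 (adjusted p = 0.189), −0.35 (adjusted p = 0.527) and −0.12 (adjusted p = 0.847) in #1, #2 and #3, and −0.67 (adjusted p = 0.576) in *NRF2* KO. Without replicate 3 of every line the difference in *KEAP1* KO #1 passed (−0.82, adjusted p = 0.0477).

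**Figure D4:**
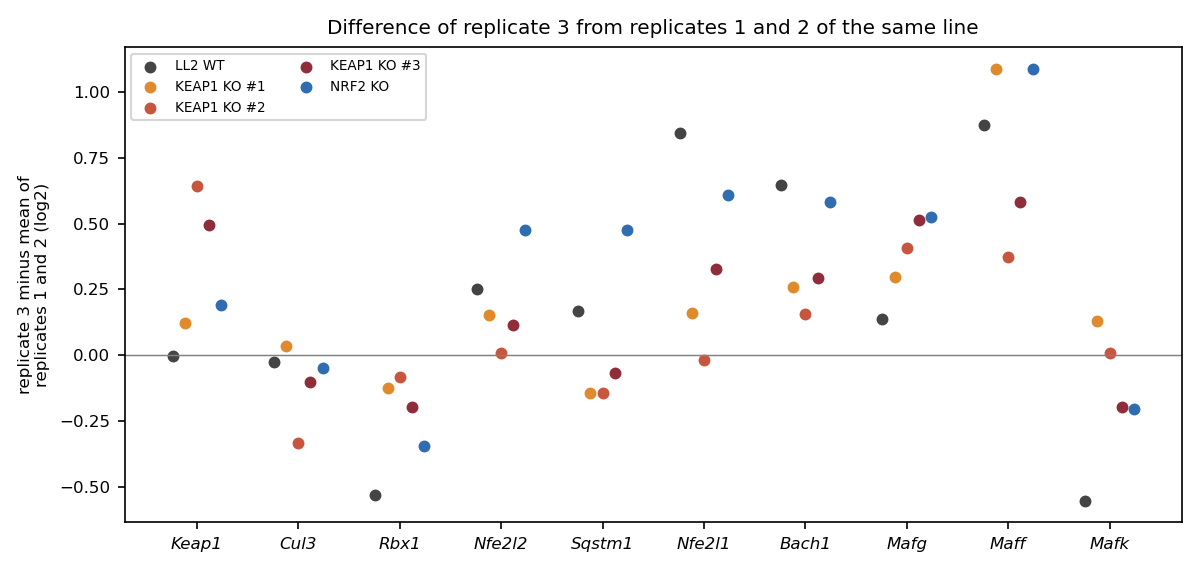
Difference of replicate 3 from the mean of replicates 1 and 2 of the same line, on the log2(CPM + 0.1) scale, for each member in the 5 lines. *Nfe2l2*, *Bach1*, *Mafg* and *Maff* lie above 0 in 5 of 5 lines and *Rbx1* below 0 in 5 of 5, where 51.5% of all genes compared had 1 direction in the 5 lines.

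The promoters of all 10 members were searched for the core of the antioxidant response element. Of the 10 members, with 16 RefSeq promoter windows (GRCm38.p6, 250 bases before to 50 after a start), 4 held the letters TGACNNNGC on either strand: *Nfe2l2*, *Mafg*, *Maff* and *Mafk*. Of all 32851 windows 12.4% held it, and of all genes 14%. A match is a description of letters, not a bound site, and the motif can overlap the AP-1 letters TGACTCA. Of the 10 NRF2 target genes listed below, 7 had a RefSeq window here and were searched (*Gclc*, *Gsr* and *Hmox1* were not), and 4 of them held the motif, *Srxn1* past its start. The matches upstream of a start are shown with 10 bases on each side, 5′ to 3′ on the strand of the gene, with the match in capitals, so that the sites of the NRF2 gene and its small MAF partners can be read beside those of 3 target genes. The site of *Nfe2l2* lies at chr2:75704885-75704913 (minus strand, match 240 bases upstream), that of *Mafg* at chr11:120633751-120633779 (minus, 222), of *Maff* at chr15:79346499-79346527 (plus, 112), of *Mafk* at chr5:139791513-139791541 (plus, 13), of *Gclm* at chr3:122245413-122245441 (plus, 134), of *Txnrd1* at chr10:82859104-82859132 (plus, 92) and of *G6pdx* at chrX:74428919-74428947 (minus, 57). Distances count from the RefSeq start, which for *Mafk* lies inside the GENCODE gene printed above, so its site falls within that gene.
Nfe2l2: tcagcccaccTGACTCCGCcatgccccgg
Mafg: ctctgcaggaGCACGGTCAacccggcgag
Maff: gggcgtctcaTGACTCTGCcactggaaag
Mafk: gatcccggaaGCGGTGTCAgtactgggga
Gclm: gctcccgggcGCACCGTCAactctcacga
Txnrd1: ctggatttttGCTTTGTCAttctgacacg
G6pdx: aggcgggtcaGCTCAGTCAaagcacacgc

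In *Nfe2l2* and *Maff* the match reads in the direction of the gene, and in the other 5 in the opposite one (GCNNNGTCA). The 4 members that hold the motif did not change alike: *Mafg* and *Mafk* were higher and *Nfe2l2* was lower in the *KEAP1* KO clones, and *Maff* did not pass. *Sqstm1*, *Bach1* and *Cul3*, which were also higher, held no match in these windows.

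Between adjacent lines in the order of mean levels, 7 of 40 neighbouring pairs differed by limma and 33 did not. The lines were sorted by these same means, which keeps neighbouring gaps small. No share over all genes was computed. For *Keap1* the steps were from *KEAP1* KO #3 up to #1 (adjusted p = 0.00498) and from #1 up to *NRF2* KO (adjusted p = 0.00968). For *Nfe2l2* the step lay between *KEAP1* KO #2 and LL2 WT (adjusted p = 0.0033), with the 4 edited lines not told apart below it. *Sqstm1* and *Bach1* stepped between LL2 WT and *KEAP1* KO #1, with *NRF2* KO lowest of all lines by its mean. *Mafg* and *Mafk* stepped between *NRF2* KO and *KEAP1* KO #1 (adjusted p = 0.0435 and 0.0368). No adjacent pair differed for *Cul3*, *Rbx1*, *Nfe2l1* or *Maff*, though *Cul3* passed against LL2 WT in all 3 *KEAP1* KO clones. Directly against *NRF2* KO, the mean of the 3 *KEAP1* KO clones was higher in 5 members and lower in 1, where 25.9% of all genes passed, and 3 members lay past a 2-fold difference (*Keap1*, *Sqstm1* and *Bach1*, the last at the limit), where 9.94% of all genes lay.

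Compared per kilobase of the longest coding transcript in LL2 WT, *Sqstm1* was highest (125 ± 11.1 CPM per kb), followed by *Nfe2l2* (75 ± 7.9), *Rbx1* (59.5 ± 11.8), *Cul3* (34.6 ± 0.392) and *Nfe2l1* (12.6 ± 4.58). *Maff* (9.32), *Mafg* (7.33), *Keap1* (6.36), *Mafk* (4.93) and *Bach1* (2) were below 10 CPM per kb. The mRNA of the KEAP1 adaptor was thus the scarcest of the ligase per length. The order rests in part on the transcript taken. With the median coding transcript *Rbx1* stood at 153 CPM per kb, above *Nfe2l2*, and *Cul3* at 66.7, while *Sqstm1* stayed highest and *Bach1* lowest. The coding transcripts of *Mafg* have a median of 972 bases and a longest of 4923, and with the median it stood at 37.1 CPM per kb, the highest of the small MAF genes.

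Over the 15 samples, *Sqstm1* and *Bach1* had a Pearson r of 0.93 on the log2 scale, *Bach1* and *Mafg* 0.91, *Sqstm1* and *Mafg* 0.86 and *Sqstm1* and *Mafk* 0.81. *Keap1* ran against them, with −0.87 for *Mafk*, −0.86 for *Sqstm1* and −0.81 for *Cul3*. The most negative value, −0.93, was between *Rbx1* and *Nfe2l1*, and LL2 WT replicate 3 was low for the one (−0.531 from replicates 1 and 2) and high for the other (0.845). The samples fall into 5 lines and share libraries, so these values describe the table and carry no test.

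Among 8172 other genes averaging 10 CPM or more, those closest in pattern to *Keap1* over the 15 samples were *Epb41l3* (r = 0.987), a membrane skeleton protein, *Clmp* (0.985), an adhesion molecule, and *Dkk2* (0.985), a Wnt antagonist. *Epb41l3* was at 35.3 CPM in LL2 WT, 33.4 in *NRF2* KO and 3.7, 0.634 and 0.645 in *KEAP1* KO #1, #2 and #3, and *Dkk2* at 91.6, 72.3, 9.62, 0.313 and 0.66. Both had clone #1 between the other clones and the lines with an unedited *Keap1*. They were picked for likeness to *Keap1* over these samples, so sharing its order follows from that choice. Closest to *Nfe2l2* were *Pced1a* (0.884), *Fth1* (0.877), the ferritin heavy chain, and *Eif3h* (0.868), a translation initiation subunit. Closest to *Sqstm1* were *Sord* (0.986), sorbitol dehydrogenase, *Gsta4* (0.984), a glutathione transferase, and *Blvrb* (0.981), a biliverdin and flavin reductase. *Gsta4* averaged 31.1 CPM in LL2 WT, 12.27 in *NRF2* KO and 465, 620 and 754 CPM in the clones.

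NRF2 target genes moved far more than the members. They were listed as readouts from general knowledge, but with earlier results of these data known. The paper had already reported higher *Nqo1* and *Gclm* in these clones. Of the 10, 8 rose in all 3 *KEAP1* KO clones, each by more than 2-fold: *Nqo1*, *Gclc*, *Gclm*, *Txnrd1*, *Slc7a11*, *G6pdx*, *Gsr* and *Osgin1*. Over all tested genes 13.5% passed in 1 direction in all 3 clones. The medians of the list were 1.77, 1.94 and 1.75 on the log2 scale. *Nqo1*, a quinone reductase, averaged 30.3 ± 5.48 CPM in the parental line and 476 ± 68.2, 276 ± 19.4 and 488 ± 17.8 CPM in the clones. *Gclc* and *Gclm*, the subunits of glutamate-cysteine ligase, rose by 3.31, 3.42 and 3.53 and by 2.81, 3.17 and 3.3. *Slc7a11*, the cystine transporter, was at 4.26 CPM in LL2 WT and at 19.5, 52.5 and 99.6 CPM in #1, #2 and #3. *Txnrd1*, thioredoxin reductase, rose by 1.41, 1.97 and 1.95, *G6pdx*, which feeds the pentose phosphate pathway, by 1.02, 1.57 and 1.34, *Gsr*, glutathione reductase, by 1.19, 1.3 and 1.18, and *Osgin1* by 2.12, 1.92 and 1.54.

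*Hmox1*, heme oxygenase and a classical gene under BACH1 repression, differed by 0.29 (adjusted p = 0.284), 0.3 (adjusted p = 0.244) and 0.63 (adjusted p = 0.0204) in the clones. *Srxn1*, sulfiredoxin, fell in *KEAP1* KO #2 (−0.74, adjusted p = 0.00287) and differed by 0.06 (adjusted p = 0.812) and −0.33 (adjusted p = 0.123) in #1 and #3. In *NRF2* KO 3 of the 10 were lower: *Nqo1* at 9.94, 11 and 8.55 CPM (−1.61, adjusted p = 5.68e-05), *Srxn1* (−1.02, adjusted p = 0.00885) and *Gclc* (−0.59, adjusted p = 0.0246). Over all tested genes 0.491% were lower in *NRF2* KO. The median of the list there was −0.50 and 8 of 10 had an unadjusted p under 0.05, a share not computed over all genes. Against *NRF2* KO, all 10 were higher in the mean of the *KEAP1* KO clones, by 0.68 (*Srxn1*) to 5.34 (*Nqo1*). There 25.9% of all genes passed in either direction.

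**Figure D5:**
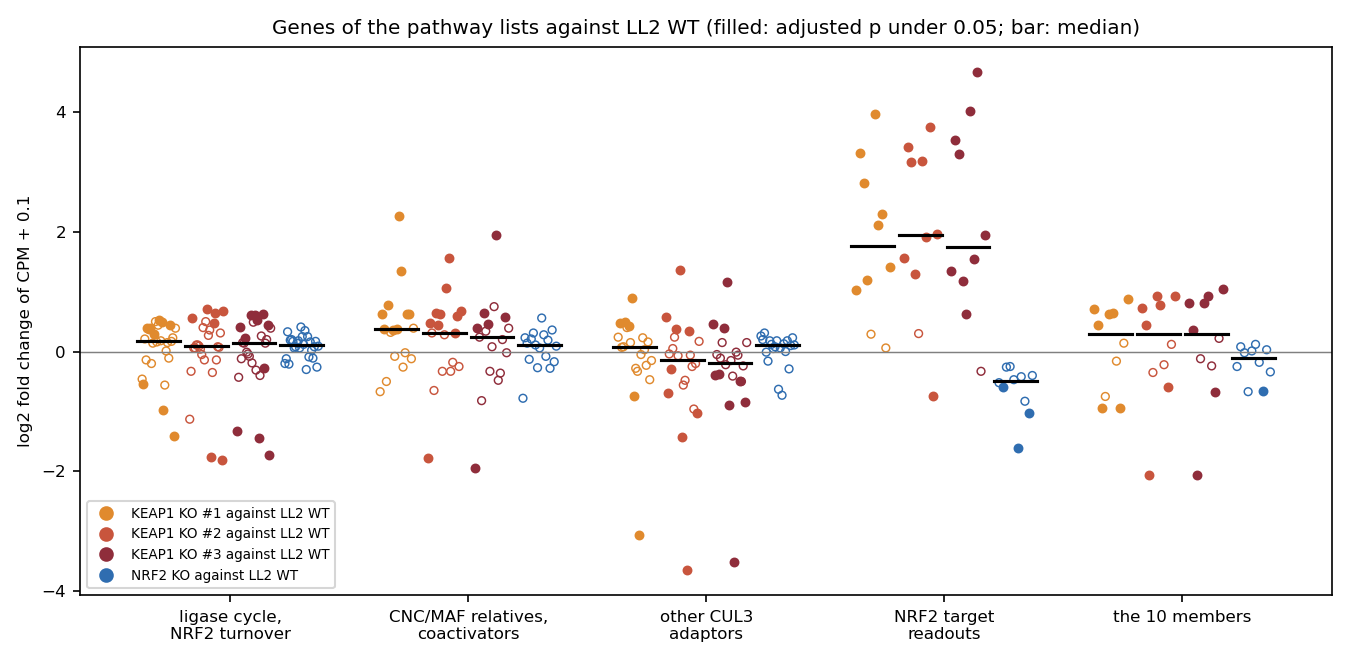
Log2 fold change (CPM + 0.1) against LL2 WT of the tested genes of 4 pathway lists and of the 10 members in the 4 edited lines; filled points have an adjusted p under 0.05, open points do not, and bars are medians. The target readouts stand at medians of 1.77, 1.94 and 1.75 in *KEAP1* KO #1, #2 and #3 and at −0.50 in *NRF2* KO, while the medians of the other lists lie within 0.4 of 0.

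Genes that run the cullin ligase cycle or turn NRF2 over by other routes moved less. Of 28 listed, 26 were tested, and 7 rose and 3 fell in *KEAP1* KO #1, 5 and 2 in #2, 7 and 4 in #3, with medians of 0.17, 0.08 and 0.14. Over all genes 23.2%, 31.9% and 31.4% passed, so the list's 10, 7 and 11 of 26 lay on both sides of that share, and 3 of the 26 passed in 1 direction in all 3 clones beside 13.5% of all genes. In *NRF2* KO 0 passed by limma, and 5 had an unadjusted p under 0.05, a share not computed over all genes. In all 3 clones *Nploc4*, a cofactor of the VCP segregase, rose, averaging 41.6 CPM in the parental line and 58.7, 66.8 and 62.3 CPM in the clones. *Usp11*, a deubiquitinase, fell in all 3, with log2 fold changes of −1.41, −1.81 and −1.73, from 22.1, 12.17 and 26.5 CPM in LL2 WT. *Sesn1*, a sestrin, fell as well, with −0.97, −1.76 and −1.44. *Amer1*, which can bind KEAP1, fell past 2-fold in *KEAP1* KO #3 (−1.33, adjusted p = 0.0446) and differed by −0.46 and −1.13 (adjusted p = 0.51 and 0.0798) in #1 and #2. With no filter on low values, or on 2 lines alone, 0 genes of this list passed in all 3 clones.

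Of 21 relatives and cofactors of the NRF2 family, 17 were tested and 4 fell below the filter. Over all genes 23.2%, 31.9% and 31.4% passed in the 3 clones. Of the 17, 9 rose and 0 fell in #1, 9 and 1 in #2, and 5 and 1 in #3. The last lay close to that share. The medians were 0.37, 0.31 and 0.24. In *NRF2* KO 0 passed by limma with 3 at an unadjusted p under 0.05, a share not computed over all genes. *Nfe2l3*, the gene of NRF3, rose by 1.34, 1.57 and 1.94, with 0.0994 CPM in the parental line and 0.403, 0.515 and 0.642 CPM in the clones, at levels close to the pseudocount. The coactivators *Crebbp* and *Ep300* and the chromatin remodeller *Smarca4* also rose in all 3, by 0.36 to 0.78. The large MAF gene *Maf* rose in *KEAP1* KO #1 (2.26, adjusted p = 0.000671) and #2 (1.06, adjusted p = 0.0371) and differed by 0.75 (adjusted p = 0.126) in #3. *Bach2*, the relative of *Bach1*, fell in #2 (−1.77, adjusted p = 0.0393) and #3 (−1.94, adjusted p = 0.0268), from 0.521 CPM in LL2 WT. That level is also close to the pseudocount, so the size of the fall is uncertain. The 5 of 17 genes that passed in all 3 clones, beside 13.5% of all genes, were 3 with quantile normalization and 1 in fits on 2 lines alone.

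Of 21 other BTB adaptors that use CUL3, 20 were tested, and 4 rose and 2 fell in *KEAP1* KO #1, 4 and 5 in #2, and 3 and 6 in #3, with medians of 0.08, −0.13 and −0.19. These are 6, 9 and 9 of 20 beside 23.2%, 31.9% and 31.4% of all genes, and 4 passed in 1 direction in all 3 clones beside 13.5%. In *NRF2* KO 0 passed by limma and 2 had an unadjusted p under 0.05, a share not computed over all genes. *Klhl3*, an adaptor for WNK kinases, was at 2.48, 1.15 and 3.31 CPM in LL2 WT, at most 0.248 CPM in any *KEAP1* KO sample and at 1.26, 0.66 and 2.24 CPM in *NRF2* KO. Its log2 fold changes were −3.07 (adjusted p = 0.000885), −3.65 (adjusted p = 0.000142) and −3.52 (adjusted p = 0.00018). The levels in the clones lie close to the 0.1 CPM added before the log, so the size of these changes is uncertain. *Klhl22* fell, with −0.74, −1.42 and −0.90, and *Klhl21* rose by 0.90, 1.36 and 1.16, with 12.9 CPM in the parental line and 24, 33.5 and 28.8 CPM in the clones. *Klhl2* rose in all 3 as well, by 0.42, 0.38 and 0.39. *Rhobtb3* fell in #2 (−1.03, adjusted p = 0.000824) and #3 (−0.85, adjusted p = 0.00298). *Ivns1abp*, named after its values were seen, passed in opposite directions, at 0.48 in #1 and −0.70 and −0.40 in #2 and #3.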

How the data were processed

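The deposited values are CPM per gene, read counts that the authors obtained by pseudo-aligning to transcripts in Kallisto v0.48.0, then summed and scaled. The paper names GRCm38.p6 cDNA, and the submitters' processing notes name GRCm39 and bcl2fastq 1.9.0. Libraries were poly-A mRNA. Whether CPM were corrected for length, and the strand setting, is not given in the sources used here. All 15 samples were used, and 1 entry without a symbol (0.0214% to 0.0491% of CPM) was left out.

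Genes with a summed CPM of at least 3 entered limma 3.58.1 (R 4.3.3) as log2(CPM + 0.1) (1 mean per line, trended empirical Bayes), with Benjamini-Hochberg adjustment over 14652 genes. The code was tested on simulated data. Since depth per sample was unknown, no counting interval was computed. Replicates were biologic triplicates of 1 line, so p-values measure the spread within a line. Gene positions and lengths come from GENCODE vM21 (GRCm38) and promoters from RefSeq.

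The members and lists were chosen with earlier results of these data known. Genes named outside the members were those called past 2-fold in at least 1 line, those passed in *NRF2* KO, the 3 closest in pattern to *Keap1*, *Nfe2l2* and *Sqstm1*, all target readouts, and genes passed in all 3 clones, the last added after their values were seen. *Skp1a* and *Ufd1l*, older symbols of listed genes, were not in the table. Some listed genes are counted but not reported here by name. Alternatives were the pseudocount, filter, scaling, lines in the fit, a replicate block and samples left out.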

Additional observations from a re-analysis of the deposited data

Results flagged for a closer look

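*Keap1* differed between *KEAP1* KO clones under the same contrast: by −1.12 on the log2 scale in #2 against #1 (limma, adjusted p = 0.00497) and by −1.11 in #3 against #1 (adjusted p = 0.00498). No sample of #2 or #3, at most 7.29 CPM, reached the lowest of #1, 10.8 CPM. Over 17 alternative fits the values ran from −1.33 to −0.93 and from −1.28 to −0.84, and each passed in 15. They missed the threshold without replicate 1 or replicate 2 of every line, with adjusted p up to 0.147 and 0.165. The cause was not tested.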

How the results depend on the processing

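Of the member values under the alternatives, 817 kept their direction and side of the threshold, 56 lost the threshold, 3 gained it and 34 changed sign, none of the last passing in the reported fit. The count of members passing was 7 in each *KEAP1* KO clone and ranged over fits with samples left out from 2 to 7 in #1, 2 to 7 in #2 and 4 to 7 in #3, with the lowest values without replicate 1 or 2 of every line. In *NRF2* KO the count was 0 with quantile normalization and with only the lines compared, and 0 to 2 with samples left out. In the mean of the clones against *NRF2* KO it was 2 to 6. Members differing between clones numbered 2 after rescaling by the median of ratios, 2 with only the lines compared, and 0 to 2 with samples left out. Genes passing in all 3 clones numbered 0 with no filter and 0 with only the lines compared for the ligase cycle list, and 3 with quantile normalization and 1 with only the lines compared for the relatives and cofactors.

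Same-numbered samples were compared over 11676 genes: the correlation of their deviations had a median of 0.276 over 30 pairs (from −0.0221 to 0.631). It ran from 0.422 to 0.631 for replicate 3, from 0.126 to 0.529 for replicate 2 and from −0.0221 to 0.278 for replicate 1. All pairs were over 0.1 in 2 of 10 pairs of lines, and by that rule the numbers were not taken to pair the samples. Replicates 2 and 3 thus shared shifts across the lines for which the reported fit had no term. With the replicate block, members differing between clones numbered 4, and the ligase cycle list and the relatives had 9 and 8 genes passing in all 3 clones. *Maff* in *KEAP1* KO #1 passed with the block (−0.75, adjusted p = 0.0102).

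The sign of small differences turned with scaling for *Rbx1* in *KEAP1* KO #1 (−0.00024 by quantile normalization) and *NRF2* KO (−0.02 by the median of ratios, −0.01 by quantile normalization) and for *Mafg* in *NRF2* KO (−0.04 and −0.01). The median of all genes in *KEAP1* KO #1 was 0.113 as deposited and 0.0101 after rescaling by the median of ratios. With 1 sample left out, *Keap1* in *NRF2* KO ran from −0.08 to 0.02. *Rbx1* ran from −0.04 to 0.23 in #1, −0.06 to 0.21 in #2 and −0.15 to 0.14 in *NRF2* KO. *Nfe2l1* ran from −0.31 to 0.12, −0.37 to 0.06, −0.39 to 0.04 and −0.38 to 0.10 in the 4 edited lines. *Mafg* and *Mafk* in *NRF2* KO ran from −0.17 to 0.14 and −0.07 to 0.27, and *Maff* in #3 from −0.47 to 0.18. In the clones against *NRF2* KO, *Nfe2l2* ran from −0.18 to 0.08, *Nfe2l1* from −0.15 to 0.18 and *Maff* from −0.03 to 0.63. With 1 replicate number left out of every line, *Keap1* in *NRF2* KO ran from −0.08 to 0.05, *Rbx1* from −0.03 to 0.20 in #2 and −0.04 to 0.09 in *NRF2* KO, *Nfe2l1* from −0.31 to 0.07 in #1 and −0.39 to 0.06 in #2, *Mafg* from −0.12 to 0.08 in *NRF2* KO and *Maff* from −0.38 to 0.05 in #3. In the clones against *NRF2* KO, *Nfe2l2* then ran from −0.15 to 0.05 and *Nfe2l1* from −0.12 to 0.12. The cause of each was not tested. Depth per library was unknown.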
